A study of Arabidopsis thaliana with 12 samples.

Results

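The RNA stored in dry wild-type Arabidopsis thaliana seeds was described from 3 messenger RNA libraries of the 12 in the series. The 3 were chosen by their labels alone, which give wild-type genotype, ecotype Col-0, seed tissue, control treatment and a time of 0 days. The other 9 libraries came from stratified wild-type seeds and from dry and stratified seeds of the atalkbh1a/1b line, and were not used in any value below. RNA was extracted from whole seeds with Trizol, its poly(A) fraction was bound to oligo-dT beads, and a strand-keeping kit was used for the libraries. The labels do not say whether the 3 libraries came from separate plants or seed lots, so the SD between them may be technical only. No contrast with another group was made and no test was run.

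A seed that dries on the mother plant keeps messenger RNA made during maturation, and this stored RNA is carried into the first hours of germination. During maturation the embryo fills protein storage vacuoles and oil bodies and makes late embryogenesis abundant (LEA) proteins, hydrophilic proteins that are linked to survival of drying. In Arabidopsis this program is run by the B3 factors ABI3, FUS3 and LEC2, which bind the RY motif, and by bZIP factors of the abscisic acid (ABA) pathway such as ABI5, which bind motifs with the core ACGTG.

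The authors deposited RPKM, the reads of a locus scaled by transcript length in kilobases and by library depth, for 32833 loci. Steps between low RPKM values placed the depth at 22.0, 22.6 and 18.7 M reads (megareads) in libraries 1, 2 and 3. A value of 1 RPKM therefore stood for about that many reads, 18.7 to 22.6, in a transcript of 1 kb, and 3 reads in such a transcript stood for 0.133 to 0.161 RPKM. The summed RPKM was 705158, 713954 and 706022, and a share below is the percent of that sum held by a locus or a family. Since RPKM is scaled by length, a share reads as the share of transcripts, not of bases. The libraries were alike but differed by more than counting noise, with a chi-square per degree of freedom of 3.19 to 4.43 for the 3 pairs. Across loci at 1 RPKM or more, Spearman's rho between libraries was 0.992 for each pair, as a description across genes.

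The dry seed held RNA of many loci, but most of the sum was in a few. At 1 RPKM or more in all 3 libraries stood 11782 loci, 35.9% of those listed, of which 11573 were nuclear protein-coding. A further 12556 loci were at 0 in all 3, among them 8218 of the 27444 nuclear protein-coding loci. In each library 5 loci held 25% of the sum and 24 loci held 50%. It took 274, 273 and 289 loci to hold 75%, and 2349, 2324 and 2370 to hold 90%. The 10 highest loci held 37.9% ± 0.195 (SD, n = 3), the 100 highest 67.6% ± 0.252 and the 1000 highest 83.5% ± 0.124.

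**Figure D1:**
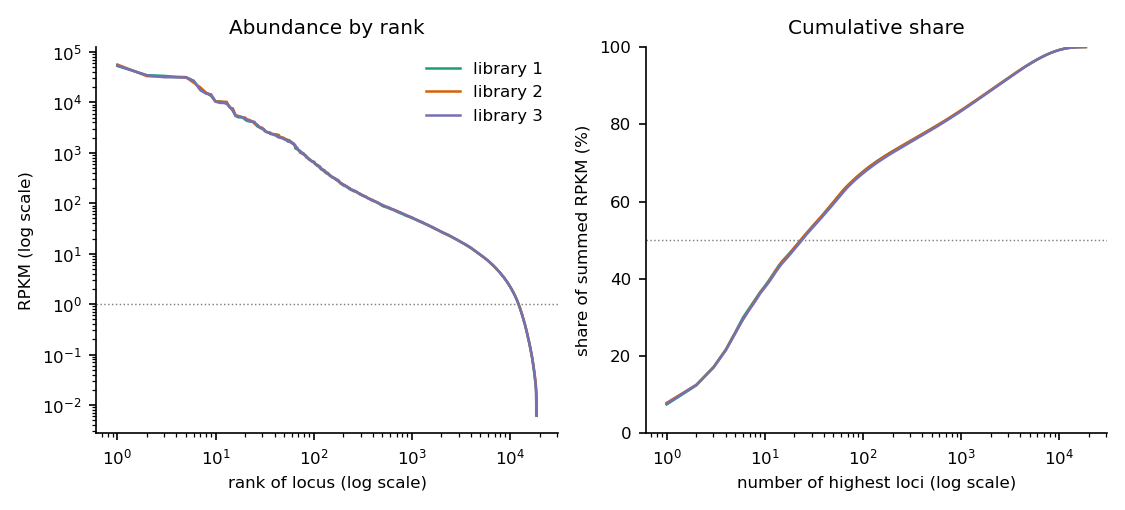
RPKM of each locus against its rank (left) and the cumulative share of summed RPKM against the number of highest loci (right), 1 line per dry wild-type library. The 3 lines lie on each other, cross the dotted 50% line at 24 loci, and pass 1 RPKM, the dotted line on the left, between ranks 12206 and 12243.

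Abundance fell off unevenly along the ranks. Loci above 10000 RPKM in all 3 libraries numbered 10, above 1000 RPKM 72, above 100 RPKM 444 and above 10 RPKM 4629. Rank 100 was the mitochondrial ribosomal RNA locus RRN26 with a mean of 655 RPKM. Rank 1000 was AT2G47970, annotated as a nuclear pore localization protein, with 52.1 RPKM. Rank 10000 was AT5G23200 with 2.25 RPKM. Among the 1000 highest loci the median ratio of the highest to the lowest library was 1.07. It was above 1.5 for 2 loci, the ribosomal RNA locus AT2G01020 and the mitochondrial locus ORF107A.

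The first place belonged to PDF1.1 (AT1G75830; chr1:28472357-28472898, plus strand), which encodes a small cysteine-rich defensin, a class of antifungal peptides. It stood at 52799.5, 56357 and 54129.7 RPKM in libraries 1, 2 and 3 and alone held 7.68% ± 0.203 of the sum. Every library was far above the next locus, the 12S globulin gene CRC (AT4G28520), at 34692, 32462 and 34391 RPKM. The ratio of PDF1.1 to CRC was 1.61 ± 0.112. PDF1.1 has a short transcript, with an exon length of 435 bases against 1798 for CRC. Counted as recovered reads, with no division by length, CRC was first with 6.77% ± 0.232 of reads and PDF1.1 was at rank 8 with 2.63% ± 0.0908.

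After PDF1.1 and CRC came RAB18, the 2S albumin genes SESA5 and AT2S3, the 12S globulin gene CRA1, EM6, the vicilin-like PAP85, the 18S ribosomal RNA locus AT3G41768 and LEA29. The same 10 loci were the 10 highest by recovered reads, in another order. Of the 30 highest loci, 9 were LEA genes, 6 storage protein genes, 6 oil body genes, 2 ribosomal RNA loci and 1 a defensin gene. The other 6 were AT1G68250, AT1G04560, AT1G54870, HSP17.7, AT1G14950 and PER1, and are described with their families. Of the 29 neighbouring pairs in the order of the 30 highest, 17 overlapped between libraries. CRC, RAB18, SESA5 and AT2S3 formed 1 such run. Within it RAB18 was above SESA5 in all 3 libraries, while CRC was above RAB18 and SESA5 above AT2S3 in 2 of 3. By contrast AT2S3, CRA1, EM6 and PAP85 were separated from each other in all 3.

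**Figure D2:**
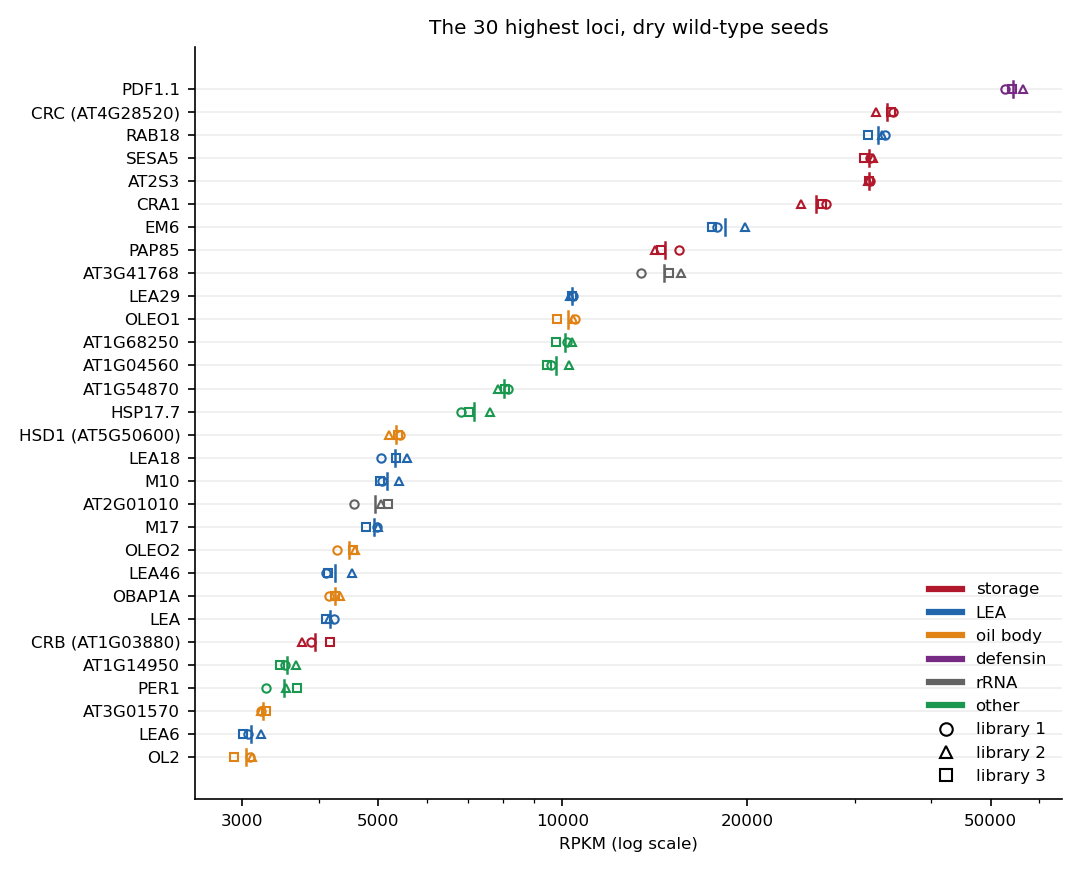
RPKM on a log axis of the 30 loci with the highest mean, 1 row per locus. Symbols are the 3 dry wild-type libraries, the vertical tick is their mean, and the colour is the family. PDF1.1 stands apart at 52799.5 to 56357 RPKM, and the row at the bottom, OL2, lies at 2915 to 3115 RPKM.

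Seed storage protein genes, which supply the nitrogen reserve of the embryo, held 21.1% ± 0.576 of the sum, at 21.6%, 20.5% and 21.2% in libraries 1, 2 and 3. The 13 loci listed were all above 1 RPKM and all among the 1000 highest. The 5 loci for 2S albumins, small sulfur-rich napins, held 9.74% ± 0.0695. The 4 for 12S cruciferins held 9.02% ± 0.430 and the 4 vicilin-like loci 2.33% ± 0.118. On recovered reads the order turned, with cruciferins at 12.9% ± 0.512 and 2S albumins at 6.08% ± 0.0483.

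Members of these families differed widely. SESA5 stood at 31819, 32087 and 31041 RPKM and AT2S3 at 31798, 31552 and 31597 RPKM, so the pair overlapped. Each held 45.9% of the 2S albumin sum. AT2S3 lies in a tandem row with AT2S1, AT2S2 and AT2S4 on chromosome 4, and these neighbours were far lower.

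AT2S2 had 2348, 2352 and 2409.8 RPKM, AT2S1 had 2269, 2290.4 and 2285 RPKM, and AT2S4 had 992, 974 and 1105 RPKM. AT2S3 was thus 13.4 ± 0.221 times AT2S2, 13.9 ± 0.125 times AT2S1 and, over the 3 libraries, 28.6 to 32.4 times AT2S4. None of the 50-base stretches within the exons of the 5 2S albumin loci occurred elsewhere in the genome. Reads of that length or longer that lie within an exon and match exactly can thus be placed.

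Among cruciferins, CRC held 53.0% of the family and CRA1 40.6%. CRA1 had 26886, 24522 and 26494 RPKM, below CRC in every library. CRB had 3892, 3763 and 4175 RPKM, and CRC was 8.59 ± 0.339 times CRB. CRD was lowest with a mean of 157 RPKM. PAP85 held 89.0% of the vicilin-like sum with 15492, 14163 and 14479.5 RPKM, and AT2G28490 9.77%.

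LEA genes, dehydrins included, held 16.1% ± 0.400 of the sum, at 16.2%, 16.4% and 15.6%. Of 69 loci, 44 were above 1 RPKM in all 3 libraries, 24 were among the 100 highest and 11 were at 0. The 44 are 63.8% of the family, against 42.2% of all nuclear protein-coding loci. At 0 were 8218 of those 27444. With all LEA groups pooled the family had the first share of the 50 families, where storage proteins are split into 3. Of its share 16 members held 90%. Counted as reads the LEA family held 12.1% ± 0.351, and cruciferins, at 12.9% ± 0.512, came first.

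RAB18, an ABA-responsive dehydrin, led with 33606, 33241 and 31497 RPKM and 28.8% of the family. EM6, a group 1 LEA protein of the embryo, followed with 17886, 19889 and 17555 RPKM, highest in library 2. Its paralog EM1 had 2296, 2359 and 2189.5 RPKM, and EM6 was 8.08 ± 0.324 times EM1. LEA29 had 10415, 10306 and 10353 RPKM, with almost no spread.

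LEA18 at 5328 RPKM, the neighbours M10 at 5181 and M17 at 4919, LEA46 at 4261, the dehydrin named LEA (AT2G21490) at 4168 and LEA6 at 3097 completed the members among the 30 highest (means). In the M17 exons 46.6% of 50-base stretches occur more than once in the genome, own repeats included, so the level is less certain.

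Dehydrins, LEA proteins with a lysine-rich segment, spanned the whole range. After RAB18 and LEA came XERO1 with 1819, 2058 and 1888 RPKM and XERO2, also known as LTI30, with 673, 679.5 and 649 RPKM. RAB18 was 17.1 ± 1.22 times XERO1. ERD14 had a mean of 2.99 RPKM.

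COR47 and ERD10, known as cold- and drought-induced dehydrins of leaves, were near the floor. COR47 rested on 9, 6 and 3 reads and ERD10 on 0, 4 and 1 reads. The 10 dehydrin loci were picked out after the values were seen.

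Oil body proteins, which coat the triacylglycerol droplets of the embryo, held 5.27% ± 0.0236 of the sum, at 5.30%, 5.27% and 5.25%. Of 30 loci, 22 were above 1 RPKM, or 73.3% against 42.2% of all nuclear protein-coding loci. At 0 were 4, against 8218 of the 27444 nuclear protein-coding loci. Oleosins held 3.06% ± 0.0457, steroleosins with the oil body-associated proteins (OBAP) 2.00% ± 0.0261, and caleosins 0.203% ± 0.00477.

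OLEO1 had 10469, 10387 and 9798 RPKM, or 47.1% of the oleosin sum, and was lowest in library 3. OLEO2 had 4293, 4588 and 4549.5 RPKM, AT3G01570 had 3221, 3219.8 and 3285 RPKM, and OL2 had 3095, 3115 and 2915 RPKM. These 4 of 9 oleosin loci were all among the 30 highest, while AT2G25890 was at 0. Of the caleosins, calcium-binding peroxygenases, PXG2 averaged 899.6 and PXG1 541 RPKM, and no other of the 8 reached 1 RPKM.

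The steroleosin HSD1 is annotated at 2 loci. AT5G50600 had 5440.1, 5206 and 5382 RPKM and AT5G50700 had 1131, 1118 and 1136 RPKM. All 50-base stretches of both transcripts occur more than once, so the split between them is uncertain. Among OBAP genes OBAP1A averaged 4249 and OBAP2A 2585 RPKM.

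Defensins and other knottin peptides held 8.14% ± 0.226 of the sum. Almost all of it was PDF1.1, with 94.4% of the family. Of 333 loci 290 were at 0, against 8218 of the 27444 nuclear protein-coding loci. AT1G47540, annotated as a knottin, had 1535, 1789 and 1548 RPKM, and PDF2.1 had 1211, 1277 and 1267 RPKM. Storage, LEA, oil body and defensin genes together held 50.6% ± 0.361 of the sum in 445 loci, 305 of which were at 0.

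**Figure D3:**
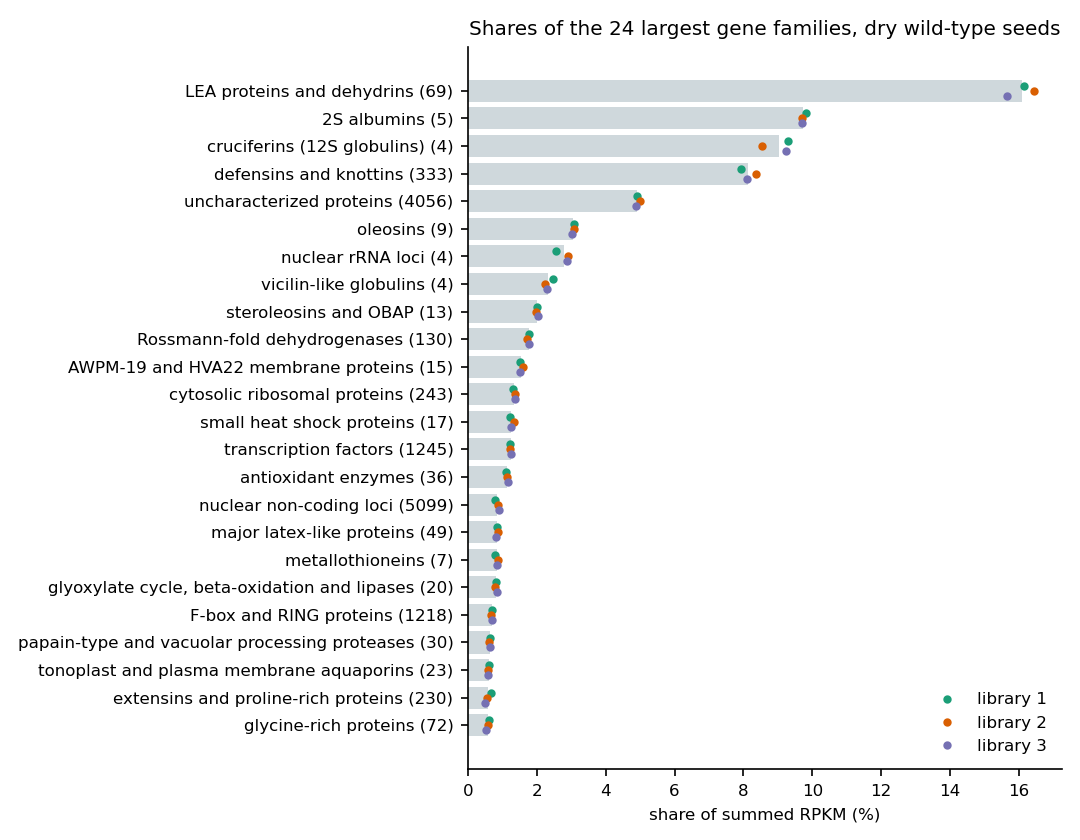
Share of summed RPKM held by the 24 largest families, with the number of loci in brackets. The 16684 loci in no family, which held 21.4% ± 0.216, are not drawn. Bars are means and dots the 3 dry wild-type libraries. LEA genes come first at 16.1%, ahead of 2S albumins at 9.74%, cruciferins at 9.02% and defensins at 8.14%. The dots of LEA genes and cruciferins spread most.

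Heat shock proteins, chaperones that also accumulate in maturing seeds without heat, held 1.61% ± 0.0559 of the sum. The 17 small heat shock protein loci held 1.26% ± 0.0600. None of them was at 0, against 8218 of the 27444 nuclear protein-coding loci. HSP17.7 (AT5G12030) had 6837, 7623 and 7030.3 RPKM and 80.4% of the small family. HSP17.4A followed at 815, 851 and 811 RPKM, and HSP17.7 was 8.67 ± 0.287 times it. HSP17.4A overlaps a locus on the other strand over 513 bases, and the use of strand in counting is not known.

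The HSP70, HSP90 and HSP101 loci held 0.350% ± 0.00426. MED37C, an HSP70, averaged 570.0 RPKM, HSP70-5 549, HSP90-1 293 and CLPB1, the HSP101 needed for heat tolerance, 272 RPKM.

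Other families of the dry state were carried by 1 or a few loci. AT1G04560, an AWPM-19-like membrane protein, had 9562, 10257 and 9451 RPKM and 89.8% of its family, and HVA22B averaged 1002 RPKM. The 1-cysteine peroxiredoxin PER1, an antioxidant of embryo and aleurone, had 3287, 3541 and 3689.6 RPKM. The manganese superoxide dismutase MSD2 averaged 1976 RPKM, and antioxidant enzymes together held 1.13% ± 0.0232.

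AT1G54870, annotated as an NAD(P)-binding Rossmann-fold protein, had 8154, 7859 and 8061 RPKM. AT1G14950, a major latex-like protein, had 3523, 3678 and 3461 RPKM. The metallothioneins MT2A and MT4B, small metal-binding proteins, averaged 2512 and 2499.7 RPKM, and MT1A was at 0. The tonoplast aquaporins TIP3-2 and TIP3-1, which sit on the membrane of protein storage vacuoles, averaged 2067 and 2009 RPKM and held 48.8% and 47.4% of the aquaporin sum.

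Both TIP3 loci overlap a locus on the other strand, by 553 bases at TIP3-2 and by 290 at TIP3-1. The universal stress protein-like AT3G58450 averaged 2334 RPKM. Of the enzymes of raffinose-type sugars, GOLS1 averaged 285 and GOLS2 123 RPKM. At 0 were 5 of 14 loci, against 8218 of the 27444 nuclear protein-coding loci.

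Transcripts for using the oil reserve were already present. The 20 loci of the glyoxylate cycle, beta-oxidation and lipases held 0.805% ± 0.0289. None was at 0, against 8218 of the 27444 nuclear protein-coding loci. ICL, the isocitrate lyase of the glyoxylate cycle, had 2960, 2815 and 3038 RPKM and was at rank 31. MLS, the malate synthase, had 974, 943 and 989 RPKM, and the thiolase PED1 averaged 402 RPKM. Of the proteases, RDL4 averaged 2022 and RD19D 1648 RPKM, and bVPE, the vacuolar processing enzyme that cleaves storage protein precursors in seeds, 675 RPKM.

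Genes for cytosolic ribosomal proteins held 1.34% ± 0.0292 of the sum in 243 loci, 0.740% of all loci. As members were found partly by words in the description, ribosomal proteins of organelles may be among them. RPS19 (AT5G47320) and RPS10 (AT3G22300) are possible cases. Of the 243 loci, 208 were above 1 RPKM, or 85.6% against 42.2% of all nuclear protein-coding loci. Among the 1000 highest were 76, but none was among the 100 highest. The share was spread evenly, with 136 members needed for 90% of it. RPL9B averaged 235 RPKM, or 2.48% of the family, RPL19A 195 and RPSAA 194. Of the RPL9B transcript 58.0% of the 50-base stretches occur more than once. Translation factors held 0.460% ± 0.00361 and polyubiquitins 0.308% ± 0.00559, of which UBQ3, at 1079 RPKM, made up 49.4%.

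Nuclear photosynthesis genes held a small share of the sum, as did some other families. The 74 nuclear photosynthesis genes held 0.0496% ± 0.000693 and tubulins with actins 0.0350% ± 0.000550. At 1 RPKM or more in all 3 libraries stood 43.2% of the photosynthesis loci and 50% of the tubulin and actin loci. This compares with 42.2% of all nuclear protein-coding loci. Class III peroxidases held 0.00428% ± 0.000282, with 38 of 69 loci at 0, against 8218 of the 27444 nuclear protein-coding loci. Among the 23 families with a share of 0.5% or more, leaving out uncharacterized proteins, the first member held over 40% in 17. In 15 of the 23, 5 loci or fewer held 90%. The 2S albumin, cruciferin, vicilin-like and nuclear ribosomal RNA groups have only 4 or 5 loci and meet this limit by size alone. The 23 also include the nuclear non-coding loci.

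Regulators of dormancy and germination were spread from rank 186 down to loci at 0. Of 54 listed loci, 38 were above 1 RPKM in all 3 libraries, 6 were among the 1000 highest and 5 were at 0. Of all 27444 nuclear protein-coding loci, 42.2% were at 1 RPKM or more in all 3 and 8218 were at 0. AHG1, a clade A phosphatase that restrains ABA signalling in seeds and is bound by DOG1, was the highest at 251, 252 and 258 RPKM, rank 186. It made up 71.3% of the sum of the 9 clade A phosphatases and was 10.9 ± 0.704 times the next, ABI2, which averaged 23.4 ± 1.56 RPKM. ABI1, the best known of them, had a mean of 4.31 RPKM.

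ABI5, the bZIP factor that holds germination back, had 177, 174 and 179 RPKM, rank 262, and ABI4, an AP2 factor, 2.24, 2.12 and 1.64 RPKM. HSFA9, the heat shock factor of seed maturation, had 124, 116 and 122 RPKM. Of the B3 factors ABI3 had 22.7, 21.8 and 22.1 RPKM and FUS3 6.72, 8.57 and 8.53 RPKM. LEC2 and the NF-Y subunit LEC1 were at 0 in all 3, where counting error still allows an expected level of up to 3 reads per library. WRI1, which drives oil synthesis, had a mean of 0.682 RPKM.

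DOG1, which sets the depth of dormancy, had 16.1, 17.3 and 16.2 RPKM, and its relative DOGL4 had 43.7, 44.8 and 45.3 RPKM, above DOG1 in every library. MFT averaged 14.7 RPKM. The 14 ABA receptors together averaged 79.9 RPKM, of which PYL5 with 21.6 and PYL7 with 16.3 were the first, and PYL10 was at 0. The kinases SNRK2.2 and SNRK2.3, which act in seeds, overlapped at 57.6 to 58.7 and 55.8 to 60.7 RPKM. SNRK2.6, known from guard cells, averaged 0.936 RPKM.

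For ABA metabolism, CYP707A2, which degrades ABA, averaged 13.5 RPKM, and the synthesis genes NCED9 and NCED6 1.55 and 0.878 RPKM. Of the gibberellin receptors GID1A had 61.9, 61.3 and 60.7 RPKM, GID1C 9.84, 9.81 and 11.9 RPKM, and GID1B 1 read in 1 library. For the last steps of gibberellin synthesis only GA3OX1 and GA3OX2 were listed, and both were at 0. The DELLA repressors GAI, RGL2 and RGA averaged 5.99, 2.71 and 1.48 RPKM. Of the light pathway PHYA averaged 19.3, PIF1 18.8, PHYB 8.95, SPT 0.972 and DAG1 0.357 RPKM.

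**Figure D4:**
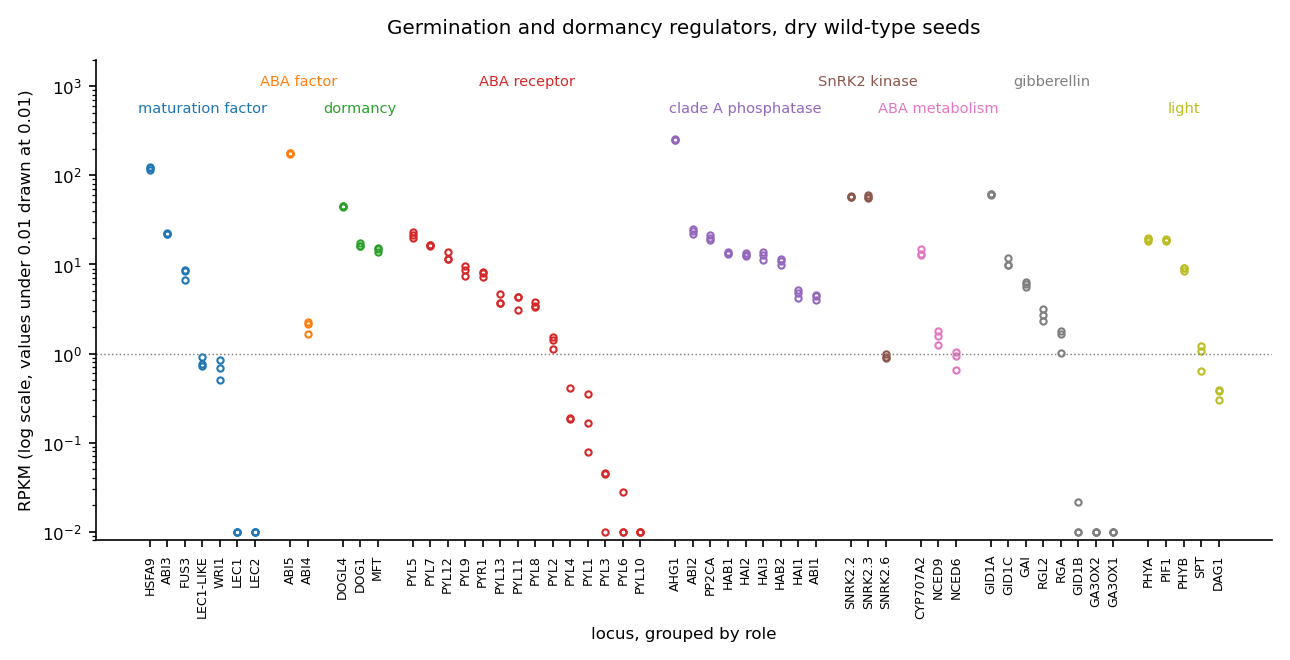
RPKM on a log axis of the 54 listed regulators, grouped and coloured by role, 3 open circles per locus for the 3 dry wild-type libraries. Within most roles 1 or 2 loci stand above the rest, such as AHG1 at 251 to 258 RPKM and GID1A near 61 RPKM. Values under 0.01 are drawn at 0.01, and the dotted line is 1 RPKM.

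Transcription factors as a whole held 1.24% ± 0.0130 in 1245 loci. Of these 479 were at 0, against 12556 of all 32833 loci and 8218 of the 27444 nuclear protein-coding loci. Members were found by words in the description, which leave some factors out, LEC1 among them. NAC002 (ATAF1) was the only one among the 100 highest, at 744, 751 and 787 RPKM, and it overlaps another locus on the opposite strand over 372 bases. RAP2-3 followed with 521, 553 and 541 RPKM, then the zinc-binding PLATZ locus AT1G21000 at 499 and AT1G02700 at 376 RPKM (means). ABI5 and HSFA9 stood lower, at ranks 262 and 375.

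Loci that make no nuclear messenger RNA held 4.19% ± 0.182, at 3.98%, 4.30% and 4.29%, although RNA was selected by its poly(A) tail. Nuclear ribosomal RNA made up most, 2.78% ± 0.192. The 18S locus AT3G41768 had 13422, 15631 and 14940.1 RPKM and AT2G01010 had 4562, 5065 and 5191 RPKM. Both were lowest in library 1. Of either transcript 94.3% of the 50-base stretches occur more than once, so the ratio of 2.97 ± 0.107 between them is uncertain. Plastid loci held 0.289% ± 0.0294 and mitochondrial loci 0.265% ± 0.0418.

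Nuclear non-coding loci held 0.855% ± 0.0586, with 4213 of 5099 at 0. Their first member was AT2G14878 with 1499, 1793 and 1737 RPKM. The next, AT3G06355 with 1221, 1403 and 1549 RPKM, and AT3G06345, annotated as the MIR5642a precursor, with 373, 405 and 442 RPKM, flank the 18S locus AT3G41768 on chromosome 3. Of their transcripts 72.4% and 88.3% of the 50-base stretches occur more than once, so the levels of both are uncertain. All 3 loci of that block were lowest in library 1.

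Markers of tissues were read as a description and not a check of the label, since the lists were chosen with earlier results known. The 5 embryo markers, from CRA1 at rank 6 to TIP3-1 at rank 47, summed to 59518, 59083 and 58156 RPKM and none was at 0. The 2 endosperm markers summed to 2753, 2138 and 1866 RPKM, almost all from EPR1, an extensin-like protein of the endosperm facing the radicle, since AT1G71250 averaged 9.75 RPKM. Seed coat markers summed to 0.459, 0.435 and 0.569 RPKM, with TT10 at 0. In whole seeds, fewer cells of a type and less RNA per cell cannot be told apart.

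EPR1 had 2743, 2128 and 1856 RPKM, the widest spread among nuclear protein-coding loci of the 1000 highest, and was highest in library 1. The cell wall loci AT5G15780, with 164, 137 and 128 RPKM, and AT5G59170, with 382, 345 and 309 RPKM, followed the same order of libraries. So did loci of other kinds, such as the LEA locus AT2G42560 with 687, 594 and 542 RPKM. The mitochondrial RRN18, with 925, 804 and 752 RPKM, did as well. The other endosperm marker, AT1G71250, did not, with 9.28, 10.4 and 9.61 RPKM. The leaf markers RBCS-1A, LHCB1.3, LHCB1.1 (AT1G29910) and RCA summed to 21.2, 22.1 and 22.0 RPKM, of which RBCS-1A made up 17.2, 17.7 and 17.6. Pollen markers summed to 2.47, 3.51 and 3.66 RPKM, where ACT4 had 0, 3 and 2 reads. Both root markers, MRN1 and ATDR4, were at 0.

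The promoters of the highest loci were set beside those of all loci, using the 300 bases before the annotated start of each nuclear protein-coding locus in the TAIR10.1 genome. Searched on both strands were the RY core CATGCA, bound by B3 factors, and the ABA-response core ACGTG, bound by bZIP factors. ACGTG also lies within the G-box CACGTG. The site II core TGGGCC and the telo-box AAACCCTA, known from ribosomal protein genes, were searched as well. A match is a description of the letters and not evidence of binding, and no test was made on these shares.

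Both seed motifs were far more frequent in the highest loci. The RY core was in 64.3% of the 28 promoters of ranks 1 to 30, in 38.5% of the 65 of ranks 31 to 100 and in 10.8% of ranks 101 to 1000, against 10.3% of all 27443 promoters. The ABA-response core was in 67.9%, 70.8% and 34.5% of the same ranks, against 25.6% of all. From rank 1001 down, the RY core was in 7.95% to 12.4% and the ABA-response core in 24.8% to 25.6% of promoters, loci at 0 included. Promoters of ranks 1 to 30 were also less rich in A and T, with a median of 63.0% against 68.7% of all.

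Storage and oil body promoters often held both seed motifs, while LEA promoters mostly held the ABA-response core. The RY core was in 84.6% of the 13 storage protein promoters and 81.8% of the 22 oil body promoters above 1 RPKM, but in 18.2% of the 44 LEA promoters above 1 RPKM. The ABA-response core was in 69.2% of the storage, 68.2% of the oil body and 84.1% of those LEA promoters, and in 5 of the 25 of LEA loci that did not reach 1 RPKM in all 3 libraries. The site II core was in none of the 13 storage promoters, in 55.1% of the 243 for ribosomal proteins and in 58.8% of the 17 for small heat shock proteins, against 14.6% of all. The telo-box was in 21.8% of ribosomal protein promoters, against 5.21% of all.

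**Figure D5:**
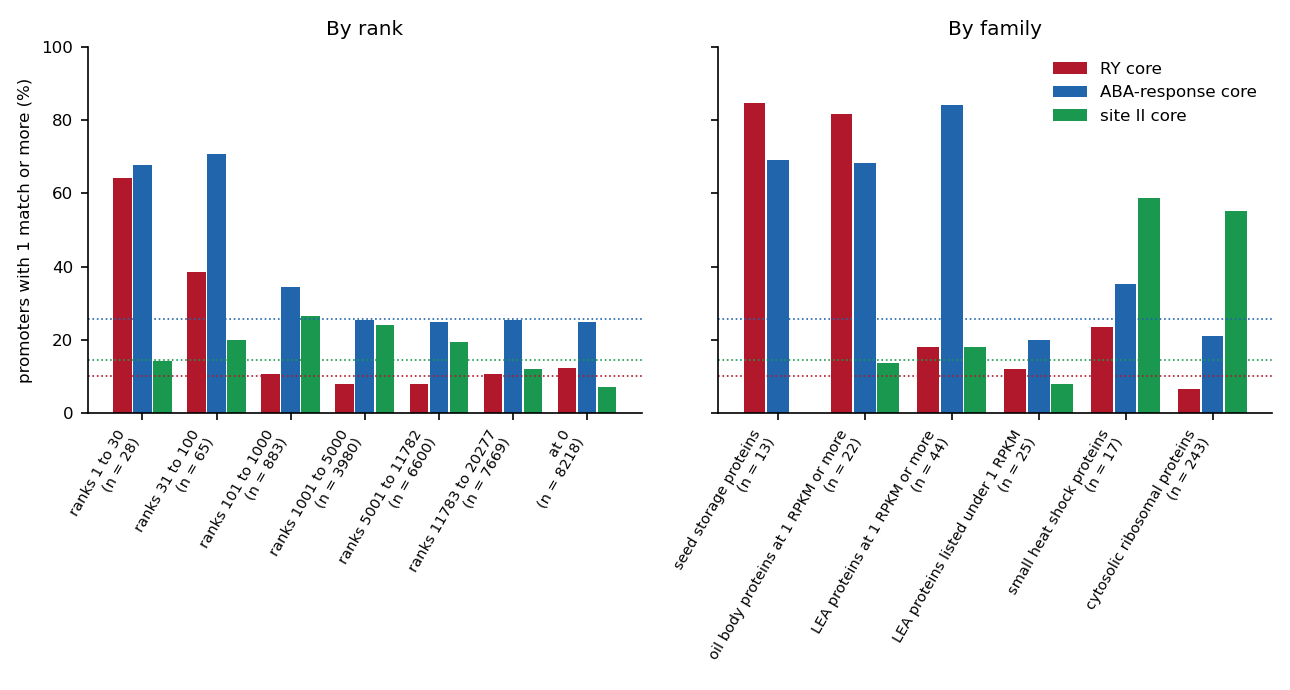
Percent of promoters (300 bases before the start) with 1 match or more to the RY core, the ABA-response core or the site II core, by rank (left) and by family (right), with the number of promoters in brackets. Dotted lines are the values of all 27443 nuclear protein-coding promoters. The RY core falls to the dotted line after rank 100, and the site II core is in 55.1% of ribosomal protein promoters, where the RY core is in 6.58%.

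Of the 8 promoters printed here, 7 belong to leading or contrasting storage, LEA, oil body and defensin loci. The last is RPL14B, the highest ribosomal protein locus with both the site II core and the telo-box. Capitals mark matches to these 4 motifs on either strand, each sequence runs 5′ to 3′ on the strand of its gene, and coordinates are TAIR10.1.
PDF1.1 (chr1:28472057-28472356, plus strand): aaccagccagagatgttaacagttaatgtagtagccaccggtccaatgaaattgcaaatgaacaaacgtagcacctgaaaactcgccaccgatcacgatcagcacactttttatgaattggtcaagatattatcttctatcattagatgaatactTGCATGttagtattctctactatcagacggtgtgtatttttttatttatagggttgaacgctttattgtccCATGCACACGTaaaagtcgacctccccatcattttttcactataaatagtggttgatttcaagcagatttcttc
CRC (chr4:14087256-14087555, plus strand): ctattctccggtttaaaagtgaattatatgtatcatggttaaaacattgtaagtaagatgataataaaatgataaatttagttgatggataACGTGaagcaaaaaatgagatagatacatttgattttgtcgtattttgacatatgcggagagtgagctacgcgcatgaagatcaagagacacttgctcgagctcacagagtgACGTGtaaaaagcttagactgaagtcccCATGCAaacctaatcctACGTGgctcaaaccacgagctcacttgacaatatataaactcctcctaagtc
AT2S3 (chr4:13611496-13611795, plus strand): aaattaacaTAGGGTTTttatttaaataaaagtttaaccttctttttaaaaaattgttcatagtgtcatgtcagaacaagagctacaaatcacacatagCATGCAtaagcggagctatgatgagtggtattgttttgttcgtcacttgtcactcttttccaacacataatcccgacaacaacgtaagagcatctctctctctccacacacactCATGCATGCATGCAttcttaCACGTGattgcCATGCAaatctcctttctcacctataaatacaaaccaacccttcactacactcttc
AT2S1 (chr4:13607029-13607328, plus strand): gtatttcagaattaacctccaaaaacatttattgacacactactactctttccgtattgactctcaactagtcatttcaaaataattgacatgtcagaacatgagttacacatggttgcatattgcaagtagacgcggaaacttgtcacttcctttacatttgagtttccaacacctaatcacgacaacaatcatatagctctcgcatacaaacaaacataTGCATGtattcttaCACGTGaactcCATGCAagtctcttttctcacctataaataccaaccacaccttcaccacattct
RAB18 (chr5:26519448-26519747, minus strand): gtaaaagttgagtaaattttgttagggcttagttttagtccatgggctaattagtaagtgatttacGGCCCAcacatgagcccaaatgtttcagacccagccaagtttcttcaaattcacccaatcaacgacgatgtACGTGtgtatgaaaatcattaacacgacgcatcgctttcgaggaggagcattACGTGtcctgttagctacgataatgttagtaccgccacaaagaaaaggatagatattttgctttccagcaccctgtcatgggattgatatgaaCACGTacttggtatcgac
EM6 (chr2:16780369-16780668, minus strand): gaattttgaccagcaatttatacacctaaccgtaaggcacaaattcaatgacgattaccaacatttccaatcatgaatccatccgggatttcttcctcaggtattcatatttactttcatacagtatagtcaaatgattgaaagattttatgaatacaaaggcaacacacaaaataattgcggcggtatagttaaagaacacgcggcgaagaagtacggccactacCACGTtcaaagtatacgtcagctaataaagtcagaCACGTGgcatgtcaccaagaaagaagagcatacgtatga
OLEO1 (chr4:12900130-12900429, plus strand): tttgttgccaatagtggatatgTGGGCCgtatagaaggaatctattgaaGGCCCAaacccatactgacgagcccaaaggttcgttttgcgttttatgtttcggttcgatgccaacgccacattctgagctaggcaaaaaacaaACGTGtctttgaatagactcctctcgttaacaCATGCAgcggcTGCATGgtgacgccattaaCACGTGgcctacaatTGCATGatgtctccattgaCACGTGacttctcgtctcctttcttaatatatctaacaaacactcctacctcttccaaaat
RPL14B (chr4:13595253-13595552, minus strand): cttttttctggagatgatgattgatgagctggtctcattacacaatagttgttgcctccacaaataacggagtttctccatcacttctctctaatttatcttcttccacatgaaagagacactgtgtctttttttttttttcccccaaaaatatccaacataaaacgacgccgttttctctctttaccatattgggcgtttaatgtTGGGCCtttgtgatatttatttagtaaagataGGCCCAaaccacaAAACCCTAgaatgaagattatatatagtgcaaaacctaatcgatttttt

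PDF1.1, the highest locus, held the RY core 2 times, once directly beside an ABA-response core. CRC held 1 RY core and 3 ABA-response cores. AT2S3 held 7 RY matches, which partly overlap, and AT2S1 held 2. The number of matches did not follow the level within the tandem row, since AT2S4, the lowest, held 6 and AT2S2 held 3. All 4 of these promoters held a G-box. RAB18 and EM6 held no RY core and 3 ABA-response matches each. OLEO1 held 3 RY matches and 2 G-boxes. Not every high locus held a seed motif, as CRB, M17 and AT1G68250 had no match to either.

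The highest loci were also short and simple genes. The median exon length of nuclear protein-coding loci was 905.5 bases at ranks 1 to 30, 998 at ranks 31 to 100, 1380 at ranks 101 to 1000, 1707 at ranks 1001 to 5000 and 1914.5 at ranks 5001 to 11782. The median number of exons was 2, 2, 4, 5 and 5 in the same bins. Further down it turned, with 1724 bases and 3 exons at ranks 11783 to 20277. The 8218 nuclear protein-coding loci at 0 had a median of 1047 bases and 2 exons. Short genes with few exons were thus not particular to the highest loci. RPKM divides by length, so the lengths bear on the ranking itself, and on recovered reads 27 of the 30 and 86 of the 100 highest loci were the same.

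Some high loci lay side by side. Among the 189 nuclear protein-coding loci of the 200 highest there were 12 pairs of direct neighbours, with 20 loci, and 9 of the pairs were of 1 family. Besides the 2S albumin row (chr4:13607329-13614283) these were M17 with M10, RAB28 with ECP31, XERO2 with XERO1, GASA3 with GASA2 and a run of 3 major latex-like loci. Levels within a pair differed. ECP31 averaged 2602 and RAB28 767 RPKM. GASA3, a gibberellin-regulated peptide, averaged 898 and GASA2 303 RPKM. In the latex-like run AT1G14950 averaged 3554 RPKM, AT1G14930 465 and AT1G14940 412 RPKM.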

How the data were processed

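The deposited table, made by the authors, holds RPKM values per locus. STAR, DESeq2 and TAIR10 are listed, without versions or roles, in the submitters' processing notes. The sources used here do not name the counting program, nor say whether strand was used or how reads matching several positions were placed. Values of the 3 dry wild-type libraries were used as deposited.

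Positions, exon lengths and products came from the RefSeq annotation of TAIR10.1, in which 32548 of the 32833 loci were found. Depth was recovered from low values: 99.2% to 99.3% of the values under 2 RPKM were whole reads within 0.05 reads, where 10% would be by chance. Between 89.8% and 90.0% of those reads lay in the listed loci. Plastid and mitochondrial loci had no exon length and entered no value on recovered reads. Floors of 3 reads cover counting error only.

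Each locus was put in at most 1 of 50 families, by locus lists and then by words in the descriptions. The 16684 loci in no family held 21.4% ± 0.216 of the sum. Members and lists were chosen with earlier results of these data known. Named loci were the 30 highest by mean RPKM, those at rank 100, 1000 and 10000, the leading members of each family, the listed regulators and every tissue marker; other named loci, and 20 ribosomal protein loci added to their family by hand, were chosen after values were seen. Shared stretches of 50 and 100 bases were taken within single exons and counted over both strands of the whole genome, organelles included. Values are mean ± SD over 3 libraries. The recovery of depth and the storage, LEA, oil body and heat shock shares were tested on data simulated from these values. Family membership, shared stretches and the promoter search were not tested in that way. The tools were Python 3.11.15, pandas 2.3.3, numpy 2.4.6 and matplotlib 3.10.9. No test was run and the other 9 libraries were left out.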

Additional observations from a re-analysis of the deposited data

How the results depend on the processing

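With 3 libraries, leaving 1 out cannot move the mean share of a fixed set of loci by 1 SD. Only the ranges are therefore given. Leaving out each replicate in turn gave 11909 to 11956 loci at 1 RPKM or more, 37.8% to 38.0% for the 10 highest loci, 67.5% to 67.7% for the 100 highest, 20.9% to 21.4% for storage, 15.9% to 16.3% for LEA, 5.26% to 5.28% for oil body, 1.58% to 1.63% for heat shock, 1.33% to 1.36% for cytosolic ribosomal protein and 4.14% to 4.29% for non-coding and organelle loci. No paired analysis was possible because no groups were compared.

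The count of loci depended on the threshold: 15587 at 0.1 RPKM and 6996 at 5 RPKM in all 3 libraries, and 20277 with any value above 0. Counted as recovered reads, the shares were 32.8% for the 10 highest, 58.5% for the 100 highest, 22.1% for storage, 12.1% for LEA, 4.46% for oil body, 1.08% for ribosomal protein and 4.45% for non-coding loci, with organelle loci left out for want of a length. Heat shock genes, at 1.59%, moved by less than 1 SD. Over nuclear protein-coding loci alone the shares were 38.9% for the 10 highest, 22.0% for storage, 16.8% for LEA, 5.50% for oil body, 1.68% for heat shock and 1.40% for ribosomal protein loci, and none exists for non-coding loci. As shares of summed log2(RPKM + 1), which gives high loci less weight, they were 0.343% for the 10 highest, 2.64% for the 100 highest, 0.352% for storage, 0.907% for LEA, 0.428% for oil body, 0.506% for heat shock, 2.49% for ribosomal protein and 2.03% for non-coding and organelle loci. On that scale, where the number of loci weighs more, the 243 ribosomal protein loci exceed the 13 storage and the 69 LEA loci. Their median of 29.1 RPKM per locus was lower than that of storage loci, 2370 RPKM, and of LEA loci, 54.3 RPKM. Leaving out loci under 300 bases or under 1 RPKM moved no share by 1 SD.

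The limits of these values are the unknown counting rules for shared reads, which touch the HSD1 copies, the ribosomal RNA loci with their neighbours AT3G06355 and AT3G06345, M17, RPL9B and other near-identical copies, and the unknown use of strand at overlapping loci. At a transcript length of 1 kb, levels of 0.133 to 0.161 RPKM rest on 3 reads.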

Other observations

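Some of the highest loci carry no description of their product. The 4056 loci annotated as uncharacterized or unknown held 4.92% ± 0.0552 of summed RPKM (SD, n = 3), more than oleosins. Of them 1964 were at 0, against 8218 of the 27444 nuclear protein-coding loci. AT1G68250, a locus with 1 exon at rank 12, had 10162, 10379 and 9754 RPKM in libraries 1, 2 and 3, overlapping the range of OLEO1. AT1G07985 had 1881, 2012 and 1833 RPKM and AT5G21020 had 1679, 1757 and 1812 RPKM, and both also have 1 exon. No 50-base stretch of the AT1G68250 exon occurred elsewhere in the genome.

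Of the 5 group VII ethylene response factors, whose protein stability depends on oxygen, 3 were among the 25 highest transcription factors. RAP2-3 had 521, 553 and 541 RPKM, RAP2-12 had 104, 102 and 109 RPKM and RAP2-2 had 91.1, 94.7 and 92.8 RPKM. HRE1 averaged 3.52 RPKM, and ERF071 (AT2G47520) rested on 4, 13 and 7 reads. The 5 loci were picked out after the values were seen.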
